A study of Rattus norvegicus with 30 samples.

Results

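The genes described here code for proteins of the mitochondrial respiratory chain, its ATP synthase, the mitochondrial ribosome, the protein import machinery and prohibitin. They were taken by name, as every gene name that begins with Nduf, Uqcr, Cox and a digit, Atp5, Mrpl or Mrps and a digit, Timm or Tomm and a digit, or Phb. The rule found 105 names among the 9999 names of the expression files, and 78 of the 105 passed a filter of at least 1 CPM (counts scaled to a common sample total) in at least 3 samples. The study followed bone marrow mesenchymal stem cells (BMSCs), the adherent stromal cells that can form bone, fat and cartilage cells, during the first 72 h of differentiation. Cells were washed from the femurs and tibias of 3 female Sprague Dawley rats aged 3 weeks, and each RNA sample pooled 3 cultures. The 10 groups of 3 samples were undifferentiated cells at 0 h (CON) and cells kept in osteogenic (OS), adipogenic (AD) or chondrogenic (CH) medium for 3, 12 and 72 h. All 3 media were commercial differentiation media, and all groups were grown from the same bone marrow isolation scheme. No cells kept in growth medium for 3, 12 or 72 h were among the samples, so time in culture, the change of medium and the lineage signal cannot be told apart in a comparison with 0 h. The labels do not say which rat stands behind a sample, so a p-value here measures only the spread between samples, which may be technical.

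Mitochondria make most of the ATP of a resting cell by passing electrons along a chain of membrane complexes and letting protons flow back through the ATP synthase. Most subunits are coded in the nucleus, made on cytosolic ribosomes and brought in through the TOM complex of the outer membrane and the TIM complexes of the inner membrane. A few core subunits are coded by the mitochondrial DNA and are made inside on the mitochondrial ribosome, whose own proteins, the Mrpl and Mrps families, are nuclear products too. Undifferentiated marrow stromal cells are known for a largely glycolytic metabolism, and differentiation towards bone and fat has been tied to more oxidative metabolism.

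NRF1 and ETS-family factors such as GABP are known regulators of nuclear genes for the respiratory chain. RefSeq promoter windows of the GRCr8 assembly, from 250 bases before to 50 bases after the start, were found for 90 of the 105 members, 85 by symbol and 5 by synonym. The palindromic NRF1 sequence, the first run of capitals in the Atp5i promoter printed here, stood in 7 of the 90 windows, which is 7.78%, against 285 of 33469 windows of all genes, or 0.852%. The letters CCGGAAG (ETS) stood on either strand in 34 of the 90 member windows, or 37.8%, against 2927 of all 33469 windows, or 8.75%. The windows of all genes were not matched to those of the members in gene type, level or base content. Both sequences were present in 2 member windows and neither in 51. Neither motif contains the other. Only these exact letters were searched for, so a window counted as having neither may still hold a variant of them. The window of Phb printed here, for example, holds the letters gcgcacgcgc. The 250 bases before the start are shown for 5 members whose levels are described further on, with the matches in capitals. They are Atp5i (chr14:1464610-1464859, + strand), Tomm7 (chr4:12197253-12197502, + strand), Mrps27 (chr2:32473954-32474203, + strand), Timm23 (chr16:7442620-7442869, - strand) and Phb (chr10:81101793-81102042, + strand, listed in RefSeq as Phb1), and they stand for a window with both sequences, one with NRF1 letters, windows with ETS letters and one with neither.
Atp5i: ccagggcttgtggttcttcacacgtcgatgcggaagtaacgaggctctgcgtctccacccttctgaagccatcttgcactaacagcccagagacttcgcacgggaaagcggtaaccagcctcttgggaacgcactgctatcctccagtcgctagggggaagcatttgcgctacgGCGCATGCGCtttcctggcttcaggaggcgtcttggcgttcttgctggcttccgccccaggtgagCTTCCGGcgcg
Tomm7: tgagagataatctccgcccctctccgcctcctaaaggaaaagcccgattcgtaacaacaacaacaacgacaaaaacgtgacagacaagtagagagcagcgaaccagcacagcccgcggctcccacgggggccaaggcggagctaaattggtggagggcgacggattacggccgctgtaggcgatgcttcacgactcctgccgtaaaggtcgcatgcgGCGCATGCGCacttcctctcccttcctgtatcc
Mrps27: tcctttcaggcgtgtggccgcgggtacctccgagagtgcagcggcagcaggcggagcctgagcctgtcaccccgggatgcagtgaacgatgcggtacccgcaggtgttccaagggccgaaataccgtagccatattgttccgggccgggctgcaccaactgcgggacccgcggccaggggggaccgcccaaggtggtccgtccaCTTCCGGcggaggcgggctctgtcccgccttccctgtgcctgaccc
Timm23: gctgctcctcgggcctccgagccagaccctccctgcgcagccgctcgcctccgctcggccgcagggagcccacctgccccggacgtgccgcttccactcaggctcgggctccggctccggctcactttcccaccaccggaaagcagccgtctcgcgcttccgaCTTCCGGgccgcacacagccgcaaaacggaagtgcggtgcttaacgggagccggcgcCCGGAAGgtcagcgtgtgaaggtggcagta
Phb: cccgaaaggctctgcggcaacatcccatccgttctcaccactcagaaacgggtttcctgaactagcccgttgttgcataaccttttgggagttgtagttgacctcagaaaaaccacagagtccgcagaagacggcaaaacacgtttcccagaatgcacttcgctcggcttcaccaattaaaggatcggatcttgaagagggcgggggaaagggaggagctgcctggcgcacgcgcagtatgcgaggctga

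The levels are CPM, that is reads of a gene scaled to the total reads of the sample and not to gene length, and each deposited value was a whole multiple of 1 read, which gave totals of 3899609 to 9046719 reads. The precision this gives is 3 reads, or 0.332 to 0.769 CPM, for a gene not seen. The listed names hold only part of each total, 53.7 to 54.2% at 0 h, 68.7 to 71.4% in OS at 12 h and 38.9 to 49.05% in AD at 72 h, and a share that moves raises or lowers all listed values together. For this reason the counts over all members in each comparison stand beside the same share over all 4363 names tested. In 3 groups 1 library stood apart, OS replicate 3 at 3 h, AD replicate 1 at 12 h and AD replicate 3 at 72 h, with a chi-square of 50.5 to 92.6 per degree of freedom against the other samples of their groups, where all other pairs within a group had at most 22.1. Counts of members that passed, in single comparisons and over several of them, are given with and without them. Of the markers of BMSCs, Thy1, Itgb1 and Cd44 were well above the floor in every group, Vcam1 and Eng were near 0, and of the lineage markers the fat gene Lpl was at 720.3 ± 56.7 CPM (SD, n = 3) at 0 h and at 1921 ± 1127 CPM in AD and 1107 ± 60.1 CPM in OS at 72 h. The bone gene Ibsp was at 2.54 ± 0.381 CPM at 0 h, 2.80 ± 1.20 CPM in OS and 247 ± 62.9 CPM in CH at 72 h, and passed the test in no osteogenic group (limma adjusted p = 0.925 at 72 h), and the cartilage gene Sox9 went from 48.1 ± 2.38 to 1299 ± 173 CPM in CH at 72 h, while the bone genes Sp7 and Alpl and the cartilage genes Acan and Col2a1 were near 0 in every group. The fat gene Pparg passed higher in OS at 72 h, by 1.60 on the log2 scale (limma adjusted p = 2.29e-07), but not in AD at 72 h, at 0.34 (limma adjusted p = 0.209). Plin1, another fat gene, passed higher in AD at 72 h, by 1.57 (limma adjusted p = 3.35e-07). The cartilage gene Comp passed higher in CH at 72 h, by 4.43 (limma adjusted p = 8.09e-16). Summed haematopoietic markers reached at most 4.81 CPM and endothelial ones 5.73 CPM. Of 3 such genes that could be tested, the macrophage gene Lyz2 passed higher in AD at 72 h (limma adjusted p = 4.33e-06), where it was at 1.57 ± 0.429 CPM against 0 at 0 h, with at most 13 reads in any sample. In the other groups Lyz2 differed from 0 h by at most 0.43 on the log2 scale. The samples of AD at 72 h may thus have carried it past the filter, and this test cannot support the difference. The endothelial gene Tek passed higher in OS at 3 and 72 h and in AD at 3 h (limma adjusted p = 0.00568, 6.34e-05 and 0.00065), at 2.47 ± 1.37, 4.74 ± 1.27 and 3.19 ± 0.596 CPM against 0.351 ± 0.489 CPM. The part of these markers in what the members did in the same groups was not tested. Fewer cells and less RNA per cell cannot be told apart in such bulk samples.

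Of the 105 members, 27 did not pass the filter, and their highest value in any sample was between 1 and 12 reads. They were the c-ring genes Atp5mc1, Atp5mc2 and Atp5mc3, the complex I genes Ndufa9, Ndufc1, Ndufs3, Ndufaf1, Ndufaf2 and Ndufaf3, the complex IV genes Cox6a2, Cox7a2l, Cox7b2 and Ndufa4, the import genes Timm8a2 and Tomm70, and 12 mitochondrial ribosome genes, Mrpl10, Mrpl12, Mrpl13, Mrpl27, Mrpl46, Mrpl52, Mrpl57, Mrps11, Mrps18b, Mrps21l, Mrps23 and Mrps24. Several of these, such as Ndufs3 and Ndufa9, are core or structural subunits that respiring cells are known to need, so a row near 0 may not hold the whole signal of the gene and is not read as absence. Of the isoform pairs, Cox6a1 could be tested but not its muscle isoform Cox6a2, and Ndufa4l2 but not Ndufa4, and Phb2 was not analysed here. The levels of 12 members are sums over 2 or 3 rows of the same name.

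The members as a group were higher than at 0 h in all 3 lineages at 3 and 12 h and were back near or below the 0 h level at 72 h. Their summed level was 7892, 7664 and 7881 CPM in the 0 h samples. In OS it was 12714, 12651 and 15796 CPM at 3 h, 14173, 15282 and 14447 CPM at 12 h and 8964, 8722 and 9231 CPM at 72 h, which are 1.76, 1.87 and 1.15 times the 0 h mean. In AD the sums were 12489.6, 11881 and 13258 CPM at 3 h, 13291, 11559.7 and 11423 CPM at 12 h and 6254, 6530.3 and 5365 CPM at 72 h, or 1.61, 1.55 and 0.774 times the 0 h mean. AD at 72 h was the only group in which every sample summed to less than every 0 h sample. In CH they were 13345, 13981 and 12376 CPM at 3 h, 12120.1, 13234 and 11985 CPM at 12 h and 9877, 8549.6 and 7986 CPM at 72 h, or 1.69, 1.59 and 1.13 times the 0 h mean. Every sample at 3 and 12 h lay above every 0 h sample, in all 3 lineages, and so, by less, did those of OS and CH at 72 h.

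The median difference of the 78 tested members from the 0 h mean, on the log2(CPM + 1) scale used for all differences here, was -0.03 to 0.01 in the 0 h samples themselves. It was 0.40 to 0.61 in OS at 3 h, 0.61 to 0.65 at 12 h and 0.09 to 0.17 at 72 h. In AD it was 0.37 to 0.50, 0.36 to 0.47 and -0.42 to -0.24 at the same times, and in CH 0.48 to 0.60, 0.39 to 0.46 and -0.09 to 0.16. The 3 lineages therefore did not overlap with 0 h at 3 and 12 h. At 72 h AD lay below it, CH straddled it, and OS lay above it by a small margin. The group median of OS at 72 h turned to -0.042 under median-ratio scaling and -0.038 by edgeR. The group medians of the members, beside those of all names tested, were 0.46 beside 0.09 in OS at 3 h and 0.59 beside 0.09 at 12 h. They were 0.46 beside 0.15 and 0.42 beside 0.15 in AD, and 0.53 beside 0.21 and 0.40 beside 0.11 in CH.

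**Figure D1:**
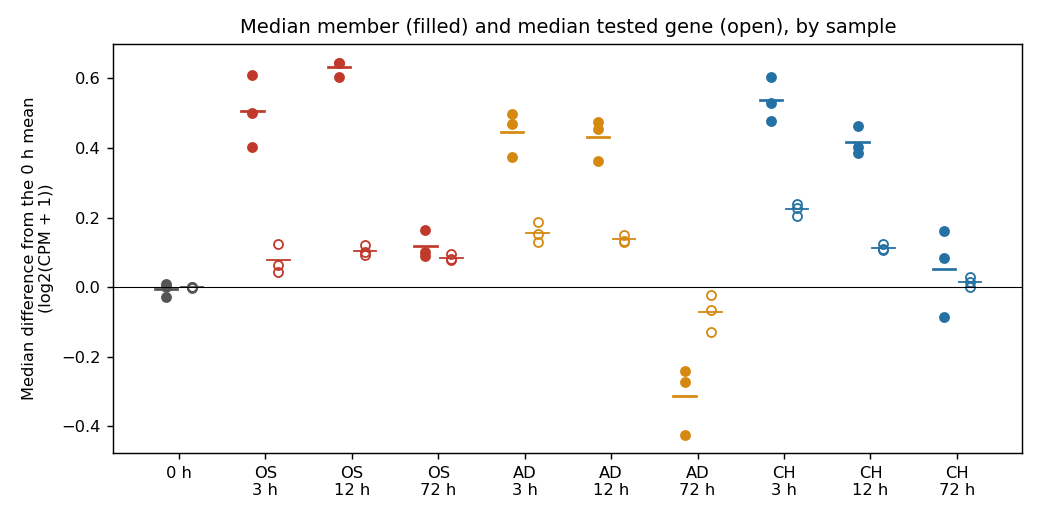
Median difference from the 0 h mean (y axis, log2(CPM + 1) units) for each of the 30 samples by group and time, with the 78 tested members as filled points and all 4363 names tested as open points. The members lie above the 0 h samples in all groups at 3 and 12 h and below them in AD at 72 h.

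A member is said to have passed the test at a limma adjusted p under 0.05 over all 4363 names, and to be called when its log2 fold change was also at least 1 in size. In OS at 3 h, 43 of 78 members passed the test higher and 3 lower, against 25.9% and 14.2% of all names. At 12 h 49 passed higher and 0 lower by limma, where 0 were lower at an unadjusted p under 0.05 and 2 by edgeR, against 30.1% and 14.6% of all names. At 72 h 8 passed higher and 2 lower, against 17.9% and 10.4% of all names, and without replicate 2 of the 0 h samples 5 passed higher. The share of members that passed higher was thus above that of all names at 3 and 12 h and below it at 72 h, as a description of these counts. In AD 42, 38 and 1 members passed higher at 3, 12 and 72 h, against 29.4, 23.4 and 12.3% of all names. In AD 1, 1 and 32 members passed lower, against 13.7, 11.4 and 23.3% of all names. In CH 44, 39 and 12 passed higher, against 31, 24.7 and 23% of all names, and 1, 1 and 6 passed lower, against 10.3, 11 and 15.1%. Without the library that stood apart, 39 members passed higher and 1 lower in OS at 3 h, 33 and 1 in AD at 12 h and 1 and 23 in AD at 72 h. Of the 323 passes against 0 h, both directions together, 77 were lost when some 1 library was left out, 112 under median-ratio scaling and 121 by edgeR. All 9 comparisons use the same 3 samples at 0 h.

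**Figure D2:**
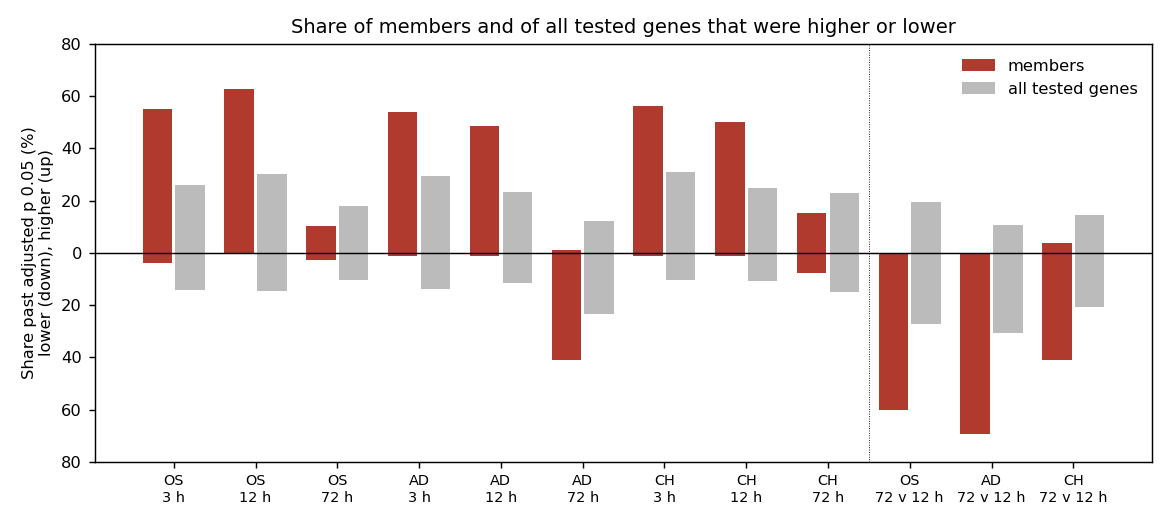
Share of tested members and of all names tested that passed the test higher (up) or lower (down) (y axis, percent) in the 9 comparisons with 0 h and the 3 steps from 12 to 72 h (x axis). The member bars are longer than those of all names for higher at 3 and 12 h and for lower from 12 to 72 h.

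With the added fold limit the share of members called higher at 3 and 12 h was close to that of all names, while in the other directions and at 72 h fewer members than names were called. Called higher were 10 members in OS at 3 h, or 12.8% beside 11.7% of all names, and 15 at 12 h, or 19.2% beside 14.7%. In AD 8 and 5 were called higher at 3 and 12 h, beside 12.4 and 8.14% of all names, and in CH 8 and 8, beside 13.1 and 9.44%. Called lower at 3 and 12 h was 1 member, Ndufa4l2, which passed the filter only through the 0 h samples, in AD at 12 h and in CH at 3 and 12 h, beside 6.67 and 7.15% of all names in OS, 6.42 and 5.55% in AD and 4.88 and 5% in CH. Without the library that stood apart the calls in both directions numbered 8 in OS at 3 h, where Mrpl17 and Mrpl49 no longer reached the fold limit, 4 in AD at 12 h, where Phb and Mrps7 no longer did, and 3 as before in AD at 72 h. At 72 h 1 member was called higher in CH, beside 11.6%, 3 lower in AD, Ndufa4l2 among them, beside 9.08%, and 0 in OS in either direction by limma, where 18 were higher and 2 lower at an unadjusted p under 0.05 and 1 was called by edgeR. The shares of all names called at 72 h in the remaining directions were 7.2% higher and 5.29% lower in OS, 6.19% higher in AD and 6.37% lower in CH. In all, 23 members, or 29.5%, were called in at least 1 of the 9 comparisons, beside 53.2% of all names, and 67, or 85.9%, passed the test in at least 1, beside 83.7%. Of the members 26, or 33.3%, passed higher in all 6 comparisons at 3 and 12 h, beside 395 of the 4363 names, or 9.05%. Under median-ratio scaling 14 did, beside 5.09% of all names, and by edgeR 12, beside 4.90%, all of them among the 26. With the 3 libraries that stood apart left out together, which was added after the data were seen, 31 passed in all 6, 25 of the 26 among them, 24 were called and 69 passed in at least 1 of the 9, and with 1 library left out 22 to 28 passed in all 6. The fold limit was sensitive to the scaling, and of 61 single calls 27 were also made under both median-ratio scaling and edgeR and 28 under neither. Among the 27 were those of Ndufb4, Cox20, Mrpl15 and Mrpl45 and that of Mrps22 in OS at 12 h. The 27 also hold those of Ndufa4l2, which cannot support a difference, as it passed the filter through the 0 h samples.

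The members with a mean of at least 10 CPM were also set beside all names of that level, a split chosen after the values were seen. In this set of 57 members and 1810 names, 73.7% of members and 46.6% of names passed higher in OS at 3 h, and 82.5% and 53.98% at 12 h. In AD the shares were 64.9% and 45.2% at 3 h, and in CH 75.4% and 52.8%. The medians of members and names in this set differed by 0.28 and 0.23 at 3 and 12 h in OS, 0.18 and 0.19 in AD and 0.12 and 0.19 in CH, in each case less than over all levels. In AD at 72 h 52.6% of members and 42.8% of names passed lower, and between OS and AD at 12 h the order turned, with 29.8% of members and 36.6% of names higher in OS. With the samples scaled on the median ratio of the listed names, the members passing higher at 3 and 12 h numbered 32 and 31 in OS, 24 and 21 in AD and 24 and 27 in CH, beside 20.1 and 21.7% of all names in OS, 22.3 and 15.4% in AD and 20.4 and 18.2% in CH under the same scaling. That scaling shifted the median of all names by -0.21 to 0.11 over the 9 comparisons, and the members stayed 0.30 and 0.35 log2 units above it in OS, 0.24 and 0.19 in AD and 0.21 and 0.23 in CH at 3 and 12 h.

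Phb, the scaffold protein of the inner membrane that holds respiratory complexes and proteases in place, was called higher in all 6 comparisons at 3 and 12 h, of which the OS calls were also made under both other scalings, that of AD at 3 h under 1 and the other 3 under neither. It stood at 190.4, 212 and 197 CPM at 0 h and at 477, 487 and 698 CPM in OS at 3 h, 553, 593 and 583 CPM at 12 h and 199, 227 and 217 CPM at 72 h. In AD it was at 474, 457 and 517 CPM at 3 h, 509, 366 and 381 CPM at 12 h and 176, 179 and 160.5 CPM at 72 h, and in CH at 507, 534 and 457 CPM at 3 h, 402, 484 and 375 CPM at 12 h and 202, 191 and 164 CPM at 72 h. All 18 samples at 3 and 12 h were higher than the 0 h samples, while at 72 h the OS and CH samples overlapped with them and those of AD were lower. The log2 fold changes were 1.45 and 1.52 in OS, 1.27 and 1.05 in AD and 1.32 and 1.06 in CH at 3 and 12 h (SE 0.13, limma adjusted p from 4.01e-11 to 1.54e-07), and -0.22 in AD at 72 h (adjusted p = 0.213).

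Complex I, the NADH dehydrogenase that starts the chain, had 16 of its 19 subunit names tested. Its summed level was 1.34 and 1.58 times that at 0 h in OS at 3 and 12 h, 1.25 and 1.41 times in AD and 1.41 and 1.31 times in CH. In OS 7 and 10 of the 16 passed higher at 3 and 12 h, in AD 7 and 7, and in CH 9 and 7, beside 25.9 and 30.1% of all names in OS, 29.4 and 23.4% in AD and 31 and 24.7% in CH. Ndufs1, a core subunit with iron-sulphur clusters that was singled out after its values were seen, was higher at 12 h than at 3 h in OS and AD. It stood at 288, 298 and 291 CPM at 0 h, 353, 384 and 288 CPM in OS at 3 h and 569.6, 550.4 and 565 CPM in OS at 12 h, and at 304, 335 and 362 CPM and 538, 458 and 456 CPM in AD at the same times. The change was 0.94 (SE 0.10, limma adjusted p = 7.77e-09) in OS at 12 h, while at 3 h it was 0.22 (adjusted p = 0.104), and the step from 3 to 12 h was 0.73 (SE 0.10, limma adjusted p = 3.95e-06) in OS and 0.53 (SE 0.10, limma adjusted p = 0.000168) in AD. Ndufab1, the mitochondrial acyl carrier protein that also sits in complex I, was called in AD at 3 h, at 9.95, 11.5 and 10.3 CPM against 4.30, 4.32 and 3.79 CPM, a change of 1.17 (SE 0.33, limma adjusted p = 0.00454), called under 1 of the other scalings. Its OS values at 3 h were 7.52, 6.64 and 1.94 CPM, with 1 sample below the 0 h range. Ndufa8, a small accessory subunit, was lower in OS, at 3.92, 4.11 and 1.94 CPM at 3 h and 2.39, 4.21 and 2.26 CPM at 72 h against 5.16, 5.43 and 6.82 CPM, with changes of -0.69 (SE 0.26, limma adjusted p = 0.0354) and -0.81 (SE 0.26, limma adjusted p = 0.0189). The pass at 3 h was lost without 0 h replicate 2 or 3 or OS replicate 3, and that at 72 h without 0 h replicate 3 or OS replicate 1 or 3. Ndufaf7, a methyltransferase needed to assemble the complex and the only one of 4 assembly factors tested, passed in no comparison with 0 h, with its extremes at 0.63 in AD at 12 h and -0.45 in CH at 72 h.

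Complex III, which hands electrons from ubiquinol to cytochrome c, had all 5 names tested, and Uqcrc1 and Uqcrfs1 had its largest changes. Uqcrc1, a core protein, stood at 192, 186 and 165 CPM at 0 h and in OS at 394, 396 and 629.8 CPM at 3 h, 495, 581 and 527 CPM at 12 h and 211, 231 and 263 CPM at 72 h. In AD it stood at 402, 384 and 431 CPM at 3 h, 405, 290.4 and 299 CPM at 12 h and 152, 142 and 123 CPM at 72 h. The OS samples lay above those of 0 h at all times, and the AD samples above at 3 and 12 h and below at 72 h. It was called in OS at 3 and 12 h, with 1.56 (SE 0.16, limma adjusted p = 1.05e-09) at 12 h, and in AD and CH at 3 h, where the other scalings did not call it, with 1.16 (SE 0.16, limma adjusted p = 3.71e-07) and 1.15 (SE 0.16, limma adjusted p = 3.99e-07). Of all members it followed the median member most closely across the 10 group means (r = 0.981, a description over groups from 1 set of libraries), followed by Timm23 (0.979) and Mrpl28 (0.978). Uqcrfs1, the Rieske iron-sulphur protein, went from 185, 179 and 193 CPM at 0 h to 353, 386 and 366 CPM in OS at 12 h, 0.98 (SE 0.14, limma adjusted p = 7.55e-07), and was at 151, 165 and 115 CPM in AD at 72 h, -0.39 (SE 0.14, limma adjusted p = 0.0306), a pass lost without 0 h replicate 1 or 3 or AD replicate 3 and under both other scalings. Uqcrb and Uqcrc2 passed in none of the 9 comparisons, on 22.5, 20.2 and 20.6 and 1.72, 3.76 and 6.22 CPM at 0 h.

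Complex IV, cytochrome c oxidase, had 7 of 11 subunit names tested, and of these 5, 4 and 0 passed higher in OS at 3, 12 and 72 h, 4, 3 and 0 in AD and 3, 4 and 2 in CH, beside 25.9, 30.1 and 17.9% of all names in OS, 29.4, 23.4 and 12.3% in AD and 31, 24.7 and 23% in CH. Cox7b, a small nuclear subunit, was among those higher in all 6 early comparisons. It stood at 133, 119.9 and 127 CPM at 0 h, 237, 241 and 232 CPM in OS at 12 h, 234, 224 and 214 CPM in AD at 12 h and 192, 167 and 188 CPM in CH at 12 h, with 0.90 (SE 0.10, limma adjusted p = 1.47e-08) in OS. All 9 of these samples were above the 0 h samples. Ndufa4l2, a paralogue of the complex IV subunit Ndufa4 known as a hypoxia-induced gene, was the member called lower most often, at 1.003, 1.53 and 1.82 CPM at 0 h and at 0 reads in every AD sample at 12 and 72 h. Against a floor of 3 reads per library it was at least 2.82-fold lower in AD at 12 h, 2.83-fold at 72 h, and 3.46-fold, 3.16-fold and 2.07-fold in CH at 3, 12 and 72 h, where at most 2 reads were seen. No sample held more than 12 reads of it, and only 2 samples other than those of 0 h reached 1 CPM, so it passed the filter through the group in which it was high, and a test of lower values against that group cannot support the difference.

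The complex IV assembly factors stayed near their level at 0 h as a sum. It was between 0.794 and 1.06 times that at 0 h in all 9 groups. Cox16 stood at 43.7, 43.7 and 41.7 CPM at 0 h and 39.3, 37.1 and 21.2 CPM in OS at 3 h, -0.44 (SE 0.17, limma adjusted p = 0.0365), with replicate 3 far below the other samples, a pass lost without that replicate or any 1 of the 0 h samples, and Cox11, a copper chaperone, passed in none of the 9, with -0.44 in OS at 12 h (adjusted p = 0.105). Cox20, a chaperone for a mitochondrially coded subunit, was called. It stood at 2.29, 4.18 and 4.40 CPM at 0 h, 5.33, 4.11 and 4.01 CPM in OS at 3 h, 15.97, 14.8 and 11.6 CPM at 12 h and 3.73, 4.37 and 4.97 CPM at 72 h, and at 10.97, 9.02 and 8.51 CPM in AD at 12 h. It passed at 12 h in OS, by 1.73 (SE 0.27, limma adjusted p = 4.27e-06), and in AD, by 1.21 (SE 0.27, limma adjusted p = 0.000739), and at no other time in these lineages, with 0.69 in AD at 72 h (adjusted p = 0.0505).

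The ATP synthase had 9 of 12 names tested, and its summed level was 2.03 and 1.998 times that at 0 h in OS at 3 and 12 h, 1.85 and 1.71 in AD and 1.85 and 1.86 in CH. Atp5f1b held 55.01% of this sum, and without it and Atp5f1a the sum was 1.42 and 1.48 times that at 0 h in OS, 1.30 and 1.38 in AD and 1.38 and 1.38 in CH. In OS at 3 h the sums of all 12 names were 4906, 4842 and 7115 CPM, with replicate 3 the highest. Atp5f1b, the catalytic beta subunit of the F1 head, stood at 1383, 1270.2 and 1414 CPM at 0 h and at 2789, 2773 and 4549.7 CPM in OS at 3 h, 2896, 3257 and 3079 CPM at 12 h and 1856, 1584 and 1783 CPM at 72 h. In AD it stood at 3002, 2919 and 3189 CPM at 3 h, 2935, 2514 and 2386 CPM at 12 h and 1117, 1248 and 816 CPM at 72 h, and in CH at 2967, 3132 and 2741 CPM at 3 h, 2726, 3358 and 2785 CPM at 12 h and 1209, 1250.0 and 1158 CPM at 72 h. All samples at 3 and 12 h lay above 0 h, and those of AD and CH at 72 h lay below it. It was called in 5 of the 6 early comparisons, all but AD at 12 h, and under both other scalings only in OS at 3 h, with 1.27 (SE 0.15, limma adjusted p = 2.43e-08) in OS at 3 h, 1.16 (SE 0.15, limma adjusted p = 1.37e-07) in AD and 1.12 (SE 0.15, limma adjusted p = 2.64e-07) in CH. Atp5f1a, the alpha subunit of the same head, passed in the same 6 comparisons without reaching the fold limit, at 0.98 in OS at 12 h. Atp5h and Atp5i, subunits of the stalk and the membrane part, differed from 0 h by 0.28 (adjusted p = 0.0652) and 0.26 (adjusted p = 0.202) in OS at 3 h and by 0.36 (adjusted p = 0.016) and 0.68 (adjusted p = 0.000565) at 12 h, where edgeR turned the sign of Atp5h to -0.05 and its pass was lost without 0 h replicate 3 or OS replicate 2.

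Proteins of the mitochondrial ribosome had 13 of their 30 tested names called in at least 1 of the 9 comparisons, or 43.3%, beside 53.2% of all names. Of 19 large subunit names tested, 13 and 15 passed higher in OS at 3 and 12 h, 13 and 10 in AD and 14 and 13 in CH. Of 11 small subunit names, 5 and 6 passed higher in OS, 5 and 4 in AD and 5 and 4 in CH, beside the 25.9 and 30.1% of all names in OS, 29.4 and 23.4% in AD and 31 and 24.7% in CH. The summed level of the small subunit reached 2.27 times and that of the large subunit 2.04 times the 0 h mean in OS at 12 h. Mrpl40, a large subunit protein, was the only tested member that passed higher in all 9 comparisons with 0 h, which rests on AD at 72 h, where its pass was lost without 0 h replicate 1 or 3 or AD replicate 1 or 2 and 0 members passed higher without AD replicate 2 or without the filter on low values (by limma, where 3 were higher at an unadjusted p under 0.05 with all samples and 3 by edgeR). It stood at 19.8, 24.9 and 21.4 CPM at 0 h, and in OS at 44.3, 49.9 and 42.2 CPM at 3 h, 54.4, 62.5 and 54.4 CPM at 12 h and 42.97, 44.2 and 43.1 CPM at 72 h. In CH it stood at 55.7, 65.3 and 62.7 CPM at 3 h, 51.7, 54.5 and 45.3 CPM at 12 h and 44.4, 46.4 and 38.7 CPM at 72 h, and in AD at 52.6, 47.8 and 46.4 CPM at 3 h, 51.9, 40.3 and 41.4 CPM at 12 h and 33.8, 29.6 and 23.4 CPM at 72 h. Its OS and CH samples stayed above 0 h at 72 h, by 0.95 (SE 0.14, limma adjusted p = 1.79e-06) and 0.94 (SE 0.14, limma adjusted p = 1.37e-06), and in AD at 72 h, where 1 of the 3 samples lay within the 0 h range, by 0.37 (SE 0.14, limma adjusted p = 0.033).

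Mrpl45, which docks the ribosome to the inner membrane, had the largest rise of any tested member against 0 h on the log2(CPM + 1) scale, in OS at 12 h, though with a smaller pseudocount the changes of Mrpl15 in AD at 3 h and Cox20 in OS at 12 h were larger, at 2.55 and 1.97. It stood at 48.99, 50.01 and 55.2 CPM at 0 h, 93.9, 90.4 and 110.0 CPM in OS at 3 h, 168, 188 and 172 CPM at 12 h and 82.7, 94.6 and 88.1 CPM at 72 h, with 1.76 (SE 0.12, limma adjusted p = 5.04e-13) at 12 h. Mrpl49, another large subunit protein, was called in 5 of the 6 early comparisons, in OS at 12 h and CH at 3 h also under both other scalings and in the other 3 under neither, and stood at 40.4, 30.1 and 31.4 CPM at 0 h against 102, 113 and 103 CPM in OS, 78.99, 82.9 and 78.4 CPM in AD and 75.4, 79.6 and 54.2 CPM in CH at 12 h. None of these samples overlapped with 0 h. Mrpl28, Mrpl50 and Mrpl58, the last of which is a peptidyl-tRNA hydrolase built into the ribosome, were called in OS at 12 h alone, by 1.36, 1.11 and 1.02 (limma adjusted p = 8.91e-09, 1.96e-05 and 1.02e-06), and of these only Mrpl28 was called under 1 of the other scalings. Mrpl17 was called in OS at 3 h and CH at 12 h, under neither other scaling, at 14.9, 11.8 and 27.1 CPM in OS and 17.6, 14.96 and 17.9 CPM in CH against 6.59, 6.41 and 10.9 CPM, by 1.03 (SE 0.25, limma adjusted p = 0.00124) and 1.02 (SE 0.25, limma adjusted p = 0.00159). Mrpl15 was called in AD at 3 h, by 1.72 (SE 0.29, limma adjusted p = 1.41e-05), on 5.20, 5.19 and 4.31 CPM against 1.29, 0.418 and 0.758 CPM, which are few reads and 2 rows of one name.

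Of the small subunit, Mrps7 was called in all 6 early comparisons, though under median-ratio scaling or edgeR only in CH. It stood at 71.6, 58.1 and 60.5 CPM at 0 h, and in OS at 146, 132 and 167 CPM at 3 h and 143, 160.1 and 161 CPM at 12 h. In AD it stood at 132, 119.9 and 134 CPM at 3 h and 146, 125 and 118 CPM at 12 h, and in CH at 179, 178 and 146 CPM at 3 h and 151, 182 and 134 CPM at 12 h. All of these samples were above 0 h, and the changes ran from 1.01 in AD to 1.39 in CH at 3 h (limma adjusted p = 1.13e-06 and 3.52e-09). Mrps27, which is known to bind RNA of the small subunit, rose further from 3 to 12 h in OS, from 103, 109 and 120.5 to 166, 195 and 168 CPM, against 53.7, 48.2 and 54.7 CPM at 0 h, and reached 1.74 (SE 0.14, limma adjusted p = 1.65e-11). The step from 3 to 12 h was 0.67 (SE 0.14, limma adjusted p = 0.000805). Mrps26 was called in the 3 lineages at 3 h, at 151, 155 and 179 CPM in OS, 168, 155 and 165 CPM in AD and 160.5, 175 and 143 CPM in CH against 58.9, 64.8 and 54.1 CPM, and in OS at 12 h, where neither other scaling called it. Mrps22 was called in OS at 3 and 12 h, by 1.10 and 1.55 (limma adjusted p = 3.09e-07 and 3.57e-10), the former under neither other scaling.

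**Figure D3:**
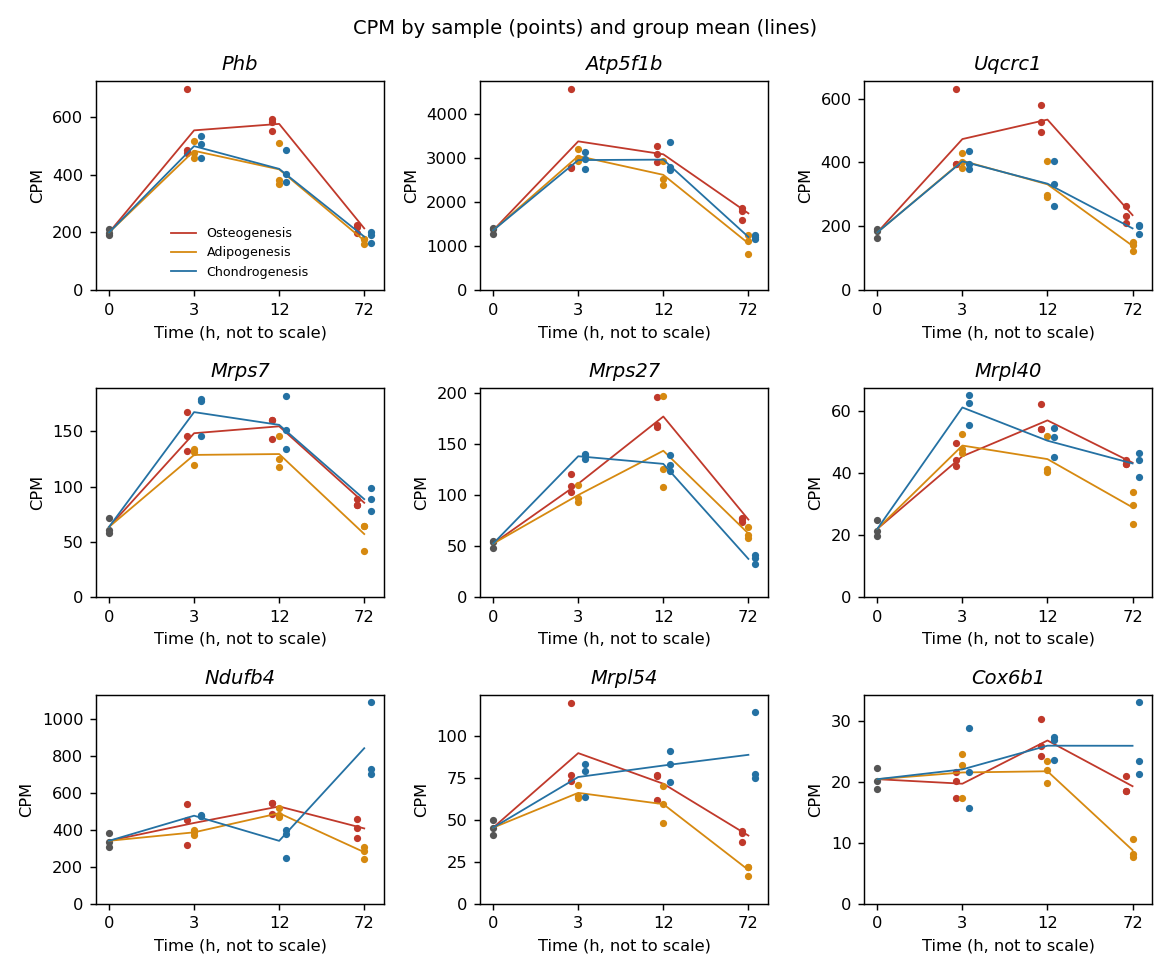
Levels of 9 members (y axis, CPM) in each of the 3 samples of the 10 groups. Phb, Atp5f1b, Uqcrc1, Mrps7, Mrps27 and Mrpl40 stand above 0 h at 3 and 12 h in every lineage, Ndufb4 is highest in CH at 72 h, and Mrpl54 and Cox6b1 are lowest in AD at 72 h.

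Of the import genes, 1 of 3 TIM members was called higher in each of OS and CH at 12 h, beside 14.7 and 9.44% of all names, and TOM members passed without reaching the fold limit. Timm23, the channel of the inner membrane, stood at 176, 205 and 192 CPM at 0 h, and at 329, 329.9 and 315 CPM in OS at 3 h, 415, 439.6 and 383 CPM at 12 h and 205, 179 and 199.6 CPM at 72 h, and was called in OS at 12 h with 1.11 (SE 0.11, limma adjusted p = 2.11e-09), though under neither other scaling. Timm22, the carrier insertase, was called in CH at 12 h, at 145, 194 and 136 CPM against 65.03, 72.6 and 75.1 CPM, 1.13 (SE 0.15, limma adjusted p = 3.56e-07), also under neither other scaling. Tomm20, the receptor of the outer membrane, passed higher in all 3 lineages at 3 h, at 792, 831 and 623 CPM in OS, 706, 722 and 783 CPM in AD and 705, 763 and 701 CPM in CH against 429, 432 and 452 CPM at 0 h. Tomm7, a small subunit of the TOM complex, passed in all 6 early comparisons, from 0.41 in AD at 3 h to 0.95 in OS at 12 h. Timm10b, an intermembrane space chaperone, passed only in AD at 3 h among the 9, by 0.73 (SE 0.27, limma adjusted p = 0.0286), a pass lost without 0 h replicate 1 or 2 or AD replicate 1 or 3 and under both other scalings.

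**Figure D4:**
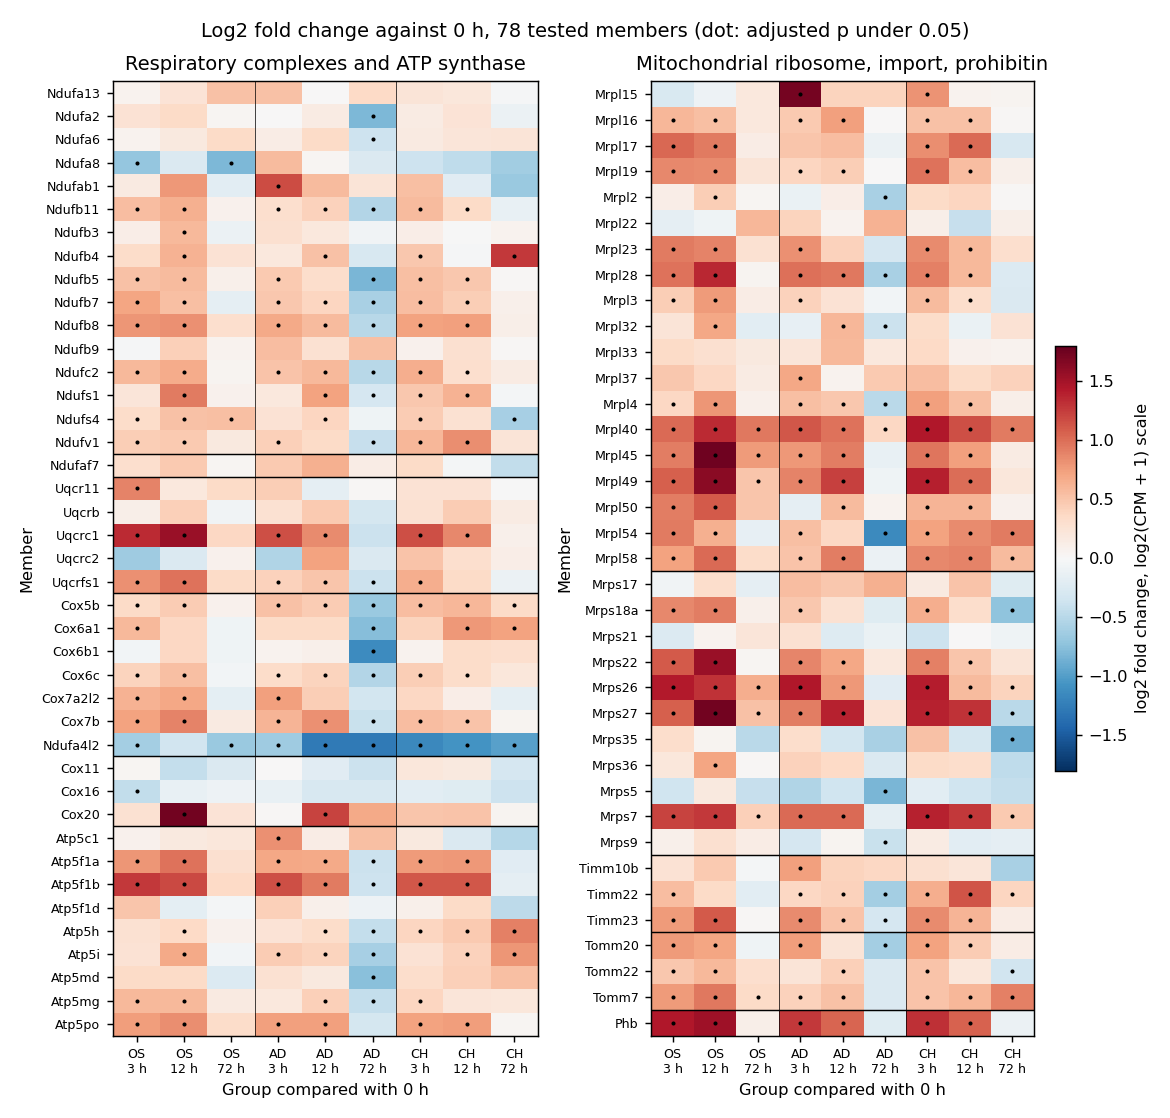
Log2 fold change against 0 h (colour, log2(CPM + 1) units) of the 78 tested members (rows, ordered by class) in the 9 comparisons (columns), with a dot where the limma adjusted p was under 0.05. Most rows are higher in the columns for 3 and 12 h and lower in the column for AD at 72 h.

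From 3 to 12 h few members moved, and from 12 to 72 h many fell in all 3 lineages. From 3 to 12 h 12 members passed higher and 0 lower in OS by limma, where 3 were lower at an unadjusted p under 0.05 and edgeR gave 4 higher and 3 lower, against 14.7 and 8% of all names. In AD 7 passed higher and 6 lower, against 13.9 and 16.7%, and in CH 1 and 7, against 6.99 and 14.5%, where edgeR and median-ratio scaling each gave 3 and 3. The 12 in OS were 7 without replicate 2 at 12 h and 11 without replicate 3 at 3 h. The 7 and 6 in AD were 4 and 3 without replicate 2 at 3 h and 5 and 8 without replicate 1 at 12 h, and the 6 were 3 without replicate 2 at 12 h. The 7 in CH were 3, 2 and 3 without replicates 1, 2 and 3 at 3 h. From 12 to 72 h, 47 of 78 passed lower in OS, against 27.1% of all names, 54 in AD, against 30.6%, or 51 without replicate 1 at 12 h and 49 without replicate 3 at 72 h, and 32 in CH, against 20.6%. Over the same step 0, 0 and 3 passed higher by limma (0, 0 and 5 at an unadjusted p under 0.05, and 1, 1 and 5 by edgeR), against 19.3, 10.6 and 14.4% of all names. The median change of the members was -0.55 in OS, -0.76 in AD and -0.36 in CH, beside -0.01, -0.18 and -0.11 for all names. Under median-ratio scaling 37, 36 and 24 members passed lower in OS, AD and CH, against 22.1, 15.9 and 14.2% of all names, and by edgeR 36, 41 and 23, against 20.7, 17.9 and 13.5%. With the fold limit 8, 21 and 5 were called lower, against 13.5, 10.8 and 5.23% of all names, and the 21 in AD became 2 under median-ratio scaling and 2 by edgeR. Called higher over this step were 0, 0 and 1, beside 9.67, 5.18 and 7.98%. From 3 to 12 h 1, 2 and 0 were called higher in OS, AD and CH, beside 4.7, 5.13 and 1.74%, and 0, 1 and 0 lower, beside 3.12, 7.82 and 5.94%.

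In all 3 lineages 26 members fell from 12 to 72 h, or 33.3% against 10.2% of all names, and 17 of them, 21.8% of the members tested, had also passed higher in all 6 early comparisons, as had 5.32% of all names. The 26 were 16 under median-ratio scaling and 15 by edgeR, beside 4.63 and 5.27% of all names, and the 17 were 12 and 11, beside 2.15 and 2.31%. With the 3 libraries that stood apart left out they were 27 and 22, of which 21 and 16 were among the 26 and the 17. Both counts use the same 12 h samples, so a high value at 12 h raises both. These 17 were Phb, Uqcrc1, Timm23, Cox7b, the complex I subunits Ndufb8 and Ndufb11, the ATP synthase subunits Atp5f1a, Atp5f1b and Atp5po, and the ribosomal proteins Mrpl4, Mrpl16, Mrpl19, Mrpl28, Mrpl45, Mrpl49, Mrps7 and Mrps27. Phb fell by 1.42, 1.26 and 1.17 on the log2 scale in OS, AD and CH. Mrps27 fell furthest of the 17 in CH, by 1.78 on the log2 scale (SE 0.14, limma adjusted p = 2.83e-11), to 38.2, 40.9 and 32.7 CPM, which lay below the 0 h samples. Mrpl28 fell by 1.54 on the log2 scale in AD, from 117, 110.5 and 90.8 CPM to 37.4, 36.7 and 33.1 CPM, also below 0 h.

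In AD at 72 h 32 members were lower than in the undifferentiated cells, against 23.3% of all names. The marker genes of BMSCs were lower in the same samples, with a summed level of 4112 to 4779 CPM against 16085 to 16892 CPM at 0 h and a change of Thy1 by -4.24 (SE 0.11, limma adjusted p = 1.04e-22), and their part in the result was not tested. Of the members tested, 6 of 7 complex IV subunits, 6 of 9 ATP synthase subunits and 9 of 16 complex I subunits passed lower, as did 5 of 19 large and 2 of 11 small ribosomal proteins. Ndufa4l2 is counted in the 32, in the 6 of complex IV and in the median of that class. It passed the filter through the 0 h samples, so its pass cannot support a difference. The difference between classes was not tested. The class medians were -0.67 for complex IV, -0.38 for ATP synthase, -0.34 for complex I, -0.08 for the large and -0.20 for the small ribosomal subunit. Cox6b1, which links the monomers of the oxidase, was called, at 8.19, 10.6 and 7.60 CPM against 18.9, 20.2 and 22.3 CPM, -1.14 (SE 0.19, limma adjusted p = 1.44e-05). Mrpl54 was called too, at 22.1, 21.99 and 16.5 CPM against 41.3, 49.7 and 45.3 CPM, -1.14 (SE 0.18, limma adjusted p = 5.61e-06). Each was called under 1 of the other scalings. In both genes all 3 samples were below all 0 h samples. Among those that passed without the fold limit, Ndufb5 and Ndufa2 fell by 0.83 and 0.81, Atp5md and Atp5i by 0.75 and 0.59, Tomm20 by 0.61 and Timm22 by 0.61 on the log2 scale. Mrps5 also passed lower there (limma adjusted p = 0.0293), on at most 1 read per sample against 3 to 11 at 0 h, or at least 1.81-fold lower against a floor of 3 reads per library, and the pass was lost without 0 h replicate 3 or AD replicate 1 or 3. With median-ratio scaling 5 members passed higher and 19 lower in AD at 72 h, in place of 1 and 32, beside 19.6 and 18.2% of all names, and the median of the members lay -0.18 from that of all names. The listed names of AD replicate 3 at 72 h held 38.9% of its total, the lowest share of the 30 samples, and without it 23 members passed lower. Without replicate 3 of the 0 h samples 22 passed lower.

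In CH at 72 h 12 members were higher and 6 lower than at 0 h, or 15.4 and 7.69%, both smaller shares than the 23 and 15.1% of all names, and 8 and 7 without replicate 1. Ndufb4, a small accessory subunit in the membrane arm of complex I, was the only member called by limma, at 1089, 731 and 704 CPM against 335, 380.3 and 307 CPM at 0 h and 401, 246 and 375 CPM in CH at 12 h, 1.28 (SE 0.17, limma adjusted p = 3.03e-07). All 3 samples stood above those of every other group. The subunits Mrpl54, Atp5h, Tomm7, Atp5i and Cox6a1 also passed higher, by 0.93, 0.91, 0.91, 0.80 and 0.72, as did Mrpl40, Mrpl58, Mrps7, Mrps26, Timm22 and Cox5b. Atp5h stood at 665, 427 and 441 CPM against 285, 268 and 247 CPM, Tomm7 at 226, 151 and 166 CPM against 110.0, 90.7 and 85.5 CPM, and Mrpl54 at 114, 77.4 and 74.9 CPM against 41.3, 49.7 and 45.3 CPM. In each of the 3, replicate 1 was the highest, and the other 2 samples were also above 0 h. Ndufs4, an accessory subunit of the NADH-binding arm, passed lower, at 52.1, 59.7 and 62.9 CPM against 91.4, 80.8 and 93.4 CPM, -0.60 (SE 0.13, limma adjusted p = 0.00032). Mrps18a, Mrps35 and Mrps27 passed lower as well, by 0.73, 0.88 and 0.48 on the log2 scale, together with Tomm22, by 0.34, and Ndufa4l2. The pass of Ndufa4l2 cannot support a difference, since it passed the filter through the 0 h samples. The pass of Mrps27 was lost without CH replicate 3, and that of Tomm22 without 0 h replicate 3 or CH replicate 2 or 3.

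Ratios within a sample do not depend on the scaling between samples. For pairs of subunits of the same complex, chosen because their values differed in CH at 72 h and given as a description only, the ratio of Ndufb4 to Ndufs1 was 1.16 ± 0.110 (SD, n = 3) at 0 h, between 0.763 and 1.32 in the group means other than CH at 72 h, and 2.95 ± 0.632 there. The ratio of Mrpl54 to Mrpl28 was 0.841 ± 0.0686 at 0 h and 1.94 ± 0.295 in CH at 72 h, and that of Cox6a1 to Cox7b was 1.005 ± 0.111 and 1.62 ± 0.339. The ratio of Atp5h to Atp5f1b moved both ways. It was 0.197 ± 0.0196 at 0 h, 0.111 ± 0.00696 in OS, 0.129 ± 0.0116 in AD and 0.126 ± 0.00826 in CH at 12 h, and 0.424 ± 0.111 in CH at 72 h. These ratios are of read counts, not per length, and only their change between groups is described.

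Between the lineages at the same time, without the 0 h samples, the counts of members that differed, taken over the 3 pairs of lineages together, were lowest at 3 h and highest at 72 h. At 3 h 5 members were higher and 3 lower in OS than in AD, against 7.4 and 9.76% of all names, and by edgeR 10 and 2. The 5 were 3 without OS replicate 3, 2 without AD replicate 1 and 1 without AD replicate 2. OS against CH gave 0 higher and 3 lower by limma, against 5.5 and 12.8%, with 2 and 6 at an unadjusted p under 0.05, 3 and 1 by edgeR and 1 and 1 under median-ratio scaling. CH against AD gave 7 higher and 2 lower, against 12.4 and 7.68%, with 2 and 2 under that scaling. The 7 were 4 without AD replicate 1 or CH replicate 1 or 2 and 3 without AD replicate 2. The 3 for OS against CH were 1 without OS replicate 1 or CH replicate 2 or 3. Mrpl50 was higher in OS than in AD at 3 h, 21.5, 20.5 and 28.5 against 11.9, 6.77 and 13.98 CPM, by 1.08 (SE 0.19, limma adjusted p = 0.000122). Mrpl15, Ndufa8 and Ndufab1 were lower in OS than in AD, with log2 fold changes of -1.999, -1.26 and -1.003, all 3 on low counts, and without OS replicate 3 the 4 calls were 2, with those of Mrpl50 and Ndufab1 not made, while the counts for OS against CH were the same. At 12 h 18 members, 11 without AD replicate 2 and 24 without AD replicate 1, were higher and 0 lower in OS than in AD by limma, where 1 was lower at an unadjusted p under 0.05 and 1 by edgeR, against 20 and 13.3%, and 28 and 3 in OS than in CH, against 20.6 and 15.2%, with 18 and 5 by edgeR, where the 3 were 1 without OS replicate 2 or 3 or CH replicate 1 or 2. CH and AD differed in 3 members higher and 4 lower, against 16.1 and 14.6%, with 5 and 2 without AD replicate 1 and 2 lower without CH replicate 2. The members called higher in OS than in CH at 12 h were Cox20, Mrpl45 and Mrps22, by 1.21, 1.02 and 1.05 (limma adjusted p = 0.000664, 6.95e-08 and 8.94e-07). The fold limit was not reached by Mrpl45 under either other scaling or without OS replicate 2 or CH replicate 3, by Mrps22 under either other scaling or without OS replicate 2, and by Cox20 without CH replicate 2, though all 3 passed the test in each case. Mrps22 stood at 102, 116 and 106 CPM in OS and 52.6, 51.4 and 50.7 CPM in CH, with no overlap.

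At 72 h 42 members were higher and 1 lower in OS than in AD, against 28.5 and 9.47% of all names, where median-ratio scaling gave 18 and 5 and leaving out AD replicate 3 gave 35 and 0. In CH 34 were higher and 7 lower than in AD, against 30.9 and 18.7%, with 28 and 11 under that scaling and 31 and 5 without AD replicate 3. OS and CH differed in both directions, 10 higher in OS and 10 lower, against 21.4 and 19.4%, with 9 and 15 under that scaling. Mrpl54 showed the largest difference of any tested member between lineages at 72 h on the log2(CPM + 1) scale, with 114, 77.4 and 74.9 CPM in CH, 43.4, 42.1 and 36.6 CPM in OS and 22.1, 21.99 and 16.5 CPM in AD, or 2.07 (SE 0.18, limma adjusted p = 3.65e-11) for CH against AD. The order CH, OS, AD had no overlap between neighbours. Cox6b1 was called higher in OS than in AD, by 1.06 (SE 0.19, limma adjusted p = 4.24e-05), a call not made without AD replicate 3 or under either other scaling, and in CH than in AD by 1.45. Mrps27 and Ndufs4 were higher in OS than in CH, by 1.01 (SE 0.14, limma adjusted p = 9.71e-07) and 1.13 (SE 0.13, limma adjusted p = 1.25e-08). Ndufs4 stood at 138, 126 and 122 CPM in OS and 52.1, 59.7 and 62.9 CPM in CH, on either side of the 0 h samples. The call of Mrps27 was not made under either other scaling or without OS replicate 2 or CH replicate 3. Ndufb4, Cox6a1, Atp5i, Atp5h, Atp5md, Tomm7 and Cox5b were also called higher in CH than in AD, by 1.57, 1.49, 1.39, 1.34, 1.29, 1.16 and 1.01. Atp5c1, the gamma subunit of the F1 head summed over 3 rows, was the member called lower in CH than in AD, at 2.31, 5.97 and 4.67 CPM against 8.19, 7.45 and 14.3 CPM. The calls of Tomm7 and Cox5b were made under neither other scaling, and those of Tomm7, Cox5b and Atp5c1 were not made without CH replicate 1, nor those of Cox5b and Atp5c1 without AD replicate 3 or that of Cox5b without AD replicate 1.

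With the fold limit the members called between lineages are given for OS against AD, OS against CH and CH against AD in turn, each beside the same shares of all names. At 3 h 1, 0 and 0 were called higher and 3, 1 and 0 lower, beside 2.77, 2.25 and 5.13% and 4.88, 5.07 and 4.22%. At 12 h 0, 3 and 0 were called higher and 0, 0 and 0 lower, beside 6.99, 8.87 and 7.04% and 6.17, 7.08 and 6.56%. At 72 h 1, 2 and 9 were called higher and 0, 2 and 1 lower, beside 9.21, 8.55 and 16.5% and 4.52, 11.1 and 9.01%. The members called by limma were thus a smaller share than among all names in each of these comparisons and directions, and the counts that passed without the fold limit, with those at an unadjusted p or by edgeR for a count of 0, are the ones given before.

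Some members did not pass in any comparison with 0 h. They were Atp5f1d, Cox11, Mrpl22, Mrpl33, Mrps17, Mrps21, Ndufa13, Ndufaf7, Ndufb9, Uqcrb and Uqcrc2, and 9 of these 11, all but Cox11 and Uqcrb, had a mean under 5 CPM over the 30 samples. Across the 10 group means 76 of 78 members had a correlation above 0 with the median member and 40 one of at least 0.8, a description in which all points share their libraries. The least alike were Ndufa13 (0.00355), Mrps21 (-0.09) and Mrpl22 (-0.590), with means of 1.04, 1.94 and 0.851 CPM over the 30 samples.

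Other mitochondrial genes, taken from lists by function, were described beside the members. Of 10 tested carriers, pores and import processing genes, 5, 6 and 3 passed higher in OS at 3, 12 and 72 h, 6, 6 and 0 in AD and 5, 5 and 1 in CH, and 4 passed lower in both AD and CH at 72 h. The counts of these lists stand beside the same shares, 25.9, 30.1 and 17.9% of all names in OS, 29.4, 23.4 and 12.3% in AD and 31, 24.7 and 23% in CH for higher, and 23.3 and 15.1% for lower in AD and CH at 72 h, and with so few genes to a list many of them are near those shares. Slc25a5, an ADP/ATP carrier of dividing cells, stood at 35.4 ± 4.54 CPM (SD, n = 3) at 0 h and 272 ± 137 CPM in OS at 3 h, by 2.81 (SE 0.20, limma adjusted p = 1.15e-12), the largest change in the mitochondrial lists. Slc25a4, the heart-type carrier, rose from 903 ± 8.65 to 2018 ± 294 CPM, by 1.15 (SE 0.11, limma adjusted p = 7.65e-10), and the outer membrane pore Vdac3 and the presequence protease subunit Pmpca rose in OS at 12 h by 1.04 (SE 0.10, limma adjusted p = 3.97e-10) and 1.06 (SE 0.25, limma adjusted p = 0.000766). Hspa9, the chaperone that pulls proteins through the TIM channel, stood at 549 ± 18.7 CPM at 0 h and 1488 ± 71.1 CPM in OS at 3 h, by 1.44 (SE 0.09, limma adjusted p = 1.21e-13). It was 1 of 4 chaperones and proteases tested, of which 1, 2 and 0 passed higher in OS, 1, 2 and 0 in AD and 1, 1 and 0 in CH, and 1 lower in AD at 3 h. Tufm, the mitochondrial elongation factor, stood at 131 ± 12.9 CPM at 0 h and 356 ± 20.9 CPM in OS at 12 h, by 1.44 (SE 0.14, limma adjusted p = 5.5e-10), and Ddx28, a helicase of ribosome assembly, rose in CH at 3 h by 1.15 (SE 0.16, limma adjusted p = 5.61e-07). These are 2 of 5 translation genes tested, of which 2, 2 and 1 passed higher in OS, 2, 1 and 0 in AD and 2, 1 and 0 in CH, and 2 lower in CH at 72 h. Of complex II, Sdhc and Sdhd could be tested, and both passed higher in OS at 3 and 12 h and lower in CH at 72 h, with Sdhd called at 12 h by 1.14 (SE 0.15, limma adjusted p = 1.61e-07). Of 4 further assembly factors tested, 2, 2 and 0 passed higher in OS, 1, 2 and 0 in AD and 2, 1 and 0 in CH, with Tmem70, a factor for the ATP synthase, called in OS at 12 h by 1.04 (SE 0.12, limma adjusted p = 1.07e-08). Of 19 genes for mitochondrial DNA upkeep and its regulators only Tfam could be tested, on at most 10 reads, and it passed lower in CH at 12 h, with 0 reads in all 3 samples against 4 to 7 at 0 h, or at least 1.57-fold lower against a floor of 3 reads per library.

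Most tested proteins of the cytosolic ribosome passed higher in OS at 3, 12 and 72 h and in AD and CH at 3 and 12 h. Of 42 listed names for its proteins, 29 were tested, and 22, 24 and 19 passed higher in OS at 3, 12 and 72 h, 22, 18 and 3 in AD and 18, 18 and 11 in CH, beside 25.9, 30.1 and 17.9% of all names in OS, 29.4, 23.4 and 12.3% in AD and 31, 24.7 and 23% in CH. Their median differences from 0 h were 0.81, 0.99 and 0.77 in OS, 0.75, 0.62 and 0.06 in AD and 0.66, 0.62 and 0.29 in CH, and Rpl36a, Rpl11, Rps3a and Rps27a had the largest single changes, of 1.85, 1.82, 1.79 and 1.74 in size. The summed level of all 42 was 11303 ± 198 CPM (SD, n = 3) at 0 h, 24017 ± 1149 CPM in OS at 12 h and 22490.3 ± 517 CPM in OS at 72 h. The summed mitochondrial ribosome over the summed cytosolic ribosome, a ratio within each sample, was 0.0874 ± 0.00116 at 0 h. In OS it was 0.0784 ± 0.00309 at 3 h, 0.0871 ± 0.00104 at 12 h and 0.0533 ± 0.00265 at 72 h. In AD it was 0.0782 ± 0.00197, 0.0833 ± 0.000962 and 0.0722 ± 0.00706, and in CH 0.0934 ± 0.000563, 0.0763 ± 0.00193 and 0.0680 ± 0.00111. The mitochondrial ribosome thus had about the 0 h share in OS at 12 h and its lowest share in OS at 72 h, where no sample overlapped with any sample of another group. Many cytosolic ribosomal protein genes have near-identical processed copies, so single values of that list are uncertain, and 9 of its 42 names were at or under the floor in every sample.

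**Figure D5:**
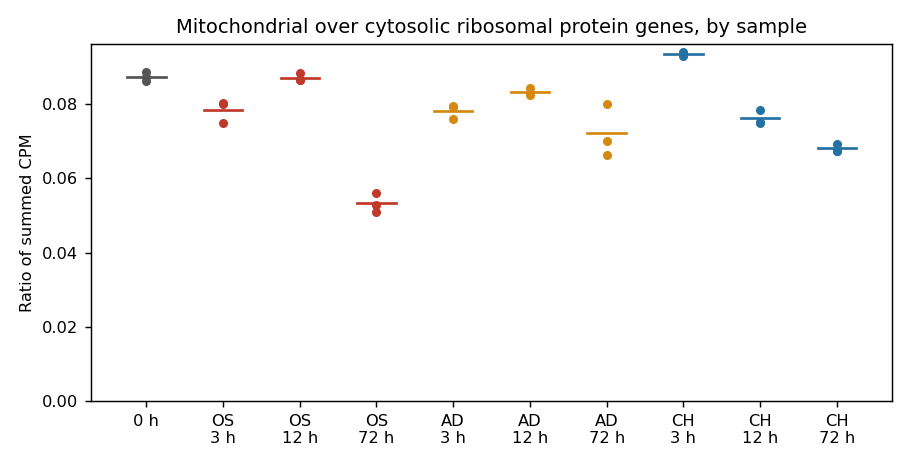
Summed level of the mitochondrial ribosomal proteins over that of the cytosolic ribosomal proteins (y axis, ratio of summed CPM) in each of the 3 samples per group. The 0 h samples lie near 0.0874 and the OS samples at 72 h, near 0.0533, are the lowest.

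Genes of dividing cells moved with the members in part of the groups. Of 6 such markers in the list 3 were listed in the files and 2, Birc5 and Top2a, were tested, while Aurkb had at most 10 reads. The summed level of the 3 was 15.9 to 24.7 CPM at 0 h. In OS it was 112 to 118, 215 to 233 and 1.40 to 1.94 CPM at 3, 12 and 72 h, and in AD 107 to 109, 103 to 185 and 0.317 to 1.07 CPM. In CH it was 134 to 145, 29.1 to 33.7 and 48.3 to 67.2 CPM. The markers were thus high where the members were high in OS and AD and lowest where the members had fallen, but in CH they were lower at 12 h than at 72 h, while 39 members passed higher at 12 h and 12 at 72 h. The share of reads in the listed names moved with the members in part of the groups, with its lowest values in AD at 72 h and its highest in OS at 12 h. In CH this share was 61.3 to 67.2% at 12 h and 60.5 to 67.7% at 72 h, while the members fell over that step. In AD replicates 2 and 3 at 12 h it was 54.2 and 54.3%, near the share at 0 h, while the members were higher than at 0 h. The part of either in the result was not tested.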

How the data were processed

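RNA-seq of 30 samples in 10 groups of 3 was analysed. Per the study's methods and the submitters' processing notes, libraries made with an mRNA kit were read on a NovaSeq instrument and processed with Trimmomatic, HISAT2 and StringTie, whose versions and the genome build are not given in the sources used here. The labels also name a ribosomal RNA depletion kit, so the enrichment step is stated in different ways. The authors deposited 1 table per sample with a column named FPKM, but its values are not per length: they are whole multiples of 1 read per sample (100% within 0.01 of a read), so the deposited values were treated as CPM and the reads recovered from them. Rows of the same name were summed, which gave 9999 names on 10803 rows, 729 of them on several rows. Near-identical copies and overlapping genes could share reads. Each sample held 3899609 to 9046719 reads, a floor of 3 reads standing for 0.332 to 0.769 CPM, which covers counting error only.

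The 4363 names reaching 1 CPM in 3 or more samples were fitted with limma 3.58.1 (trend, R 4.3.3) on log2(CPM + 1), with the 10 groups in 1 model and Benjamini-Hochberg adjustment over all names in each of 24 comparisons. A name was called where its adjusted p was under 0.05 and it differed by 1 log2 unit or more either way. Fold changes on this scale understate those of low genes. Alternatives were a pseudocount of 0.1, no filter, median-ratio scaling, edgeR 4.0.16 (quasi-likelihood) on recovered reads, a replicate block and each sample left out. The steps were tested on simulated counts. Python 3.11.15 with pandas 2.3.3 and matplotlib 3.10.9 made the summaries. The members, lists and rules were chosen with earlier results of these data known. Named were members called against 0 h or between lineages, the 2 largest rises and falls of each class whose samples lie on 1 side of 0 h, isoform pairs, prohibitins, up to 4 called genes of each related list by size, and the 3 members most and least like the median member. Promoters came from RefSeq (GRCr8).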

Additional observations from a re-analysis of the deposited data

Results flagged for a closer look

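The differences between lineages at the same time that were called by limma, each a test of the difference itself between 2 groups of 3 samples, stand apart as 23 results, and single outlying samples within groups of 3 were not tested for among them. Between OS and AD at 3 h they were -1.999 for Mrpl15, 1.08 for Mrpl50, -1.26 for Ndufa8 and -1.003 for Ndufab1 on the log2 scale, and between OS and CH -1.08 for Mrpl15. Between OS and CH at 12 h they were 1.21 for Cox20, 1.02 for Mrpl45 and 1.05 for Mrps22. Between OS and AD at 72 h it was 1.06 for Cox6b1, and between OS and CH -1.08 for Mrpl54, -1.02 for Ndufb4, 1.01 for Mrps27 and 1.13 for Ndufs4. Between CH and AD at 72 h they were 2.07 for Mrpl54, 1.57 for Ndufb4, 1.49 for Cox6a1, 1.45 for Cox6b1, 1.39 for Atp5i, 1.34 for Atp5h, 1.29 for Atp5md, 1.16 for Tomm7, 1.01 for Cox5b and -1.06 for Atp5c1. Of these 23 calls 7 were made under neither median-ratio scaling nor edgeR, Ndufab1 at 3 h, Mrpl45 and Mrps22 at 12 h, Cox6b1 (OS against AD), Mrps27, Tomm7 and Cox5b at 72 h, and Mrpl15 between OS and CH was not made under the former. Leaving out some 1 library ended 13, those 7, that of Mrpl15 between OS and CH, and those of Mrpl50, Cox20, Atp5c1 and, between OS and CH, Mrpl54 and Ndufb4. Their standard errors ran from 0.120 to 0.329 log2 units and their limma adjusted p from 3.65e-11 to 0.0335.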

How the results depend on the processing

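The early rise of the members kept its direction under every alternative tried, and its size and the calls past the fold limit depended on the scaling. Under median-ratio scaling the members called against 0 h, both directions together, numbered 4 in OS at 3 h, 9 in OS at 12 h, 3 in AD at 3 h, 3 in AD at 12 h, 1 in AD at 72 h, 3 in CH at 12 h and 2 in CH at 72 h, against 10, 15, 8, 6, 3, 9 and 1. With edgeR on the recovered reads they numbered 5 in OS at 3 h, 7 at 12 h and 1 at 72 h, 3 in AD at 3 h and 3 at 12 h, and 3 in CH at 12 h and 3 at 72 h, and a pseudocount of 0.1 gave 3 in CH at 72 h. From 12 to 72 h median-ratio scaling and edgeR left 5 and 4 of 8 in OS and 2 and 2 of 21 in AD. A pseudocount of 0.1 gave 1 in CH from 3 to 12 h, 2 for OS against CH and 2 for CH against AD at 3 h, 1 for OS against AD and 5 for OS against CH at 12 h and 4 for OS against AD at 72 h. Median-ratio scaling gave 0 for OS against CH and 1 for CH against AD at 3 h and 1 for OS against CH at 12 h. EdgeR gave 1 for CH against AD at 3 h, 1 for OS against AD at 12 h and 2 at 72 h. Under median-ratio scaling and edgeR 14 and 12 members passed higher in all 6 early comparisons in place of 26, 16 and 15 fell in all 3 lineages in place of 26, 12 and 11 did both in place of 17, and 15 and 20 were called in at least 1 of the 9 comparisons in place of 23. Among names with a mean of at least 10 CPM, chosen after the data were seen, 0 were called from 3 to 12 h in OS, 0 in AD, 1 for OS against AD and 0 for OS against CH at 3 h. The median member moved without the filter to 0.30 and 0.42 in OS, 0.35, 0.35 and -0.13 in AD and 0.38 and 0.30 in CH, and with a pseudocount of 0.1 to 0.65 in OS and 0.47 in CH at 12 h. Under median-ratio scaling it was 0.27 and 0.28 in OS, 0.24, 0.19 and -0.11 in AD and 0.21 and 0.21 in CH, and with edgeR 0.28 and 0.26 in OS, 0.22 and 0.20 in AD and 0.19 and 0.21 in CH. In OS at 72 h, where it was 0.10, the sign turned under median-ratio scaling and edgeR to -0.042 and -0.038, and in CH at 72 h from 0.05 to -0.024 by edgeR. Among single members, Mrpl3 turned from -0.31 to 0.14 and 0.06 in AD from 12 to 72 h and Timm23 from 0.33 to -0.01 between OS and AD at 72 h. The cause of these changes was not tested. ETS letters on the given strand alone stood in 18.9% of member promoters, with no share of all windows on that strand to set beside it.

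With 1 sample left out the calls against 0 h ranged over 8 to 13, 14 to 17 and 0 to 1 in OS, 7 to 9, 4 to 9 and 3 to 5 in AD and 9 to 12, 5 to 9 and 1 to 4 in CH. Those that moved by over 1.5 times were OS at 72 h to 1 without 0 h replicate 1 or 2 or OS replicate 2, AD at 72 h to 5 without 0 h replicate 1, CH at 12 h to 5 without CH replicate 2, and CH at 72 h to 4 without 0 h replicate 1 or CH replicate 2, 3 without CH replicate 3 and 2 without 0 h replicate 2 or CH replicate 1. From 3 to 12 h the ranges were 1 to 1, 1 to 3 and 0 to 1 in OS, AD and CH, and from 12 to 72 h 8 to 10, 15 to 25 and 5 to 8. For OS against AD they were 2 to 4, 0 to 1 and 0 to 4 at 3, 12 and 72 h, for OS against CH 1 to 1, 1 to 4 and 2 to 4, and for CH against AD 0 to 2, 0 to 1 and 8 to 13. Moves of over 1.5 times came without AD 3 h replicate 1 for AD from 3 to 12 h (1), CH replicate 3 of either time for CH from 3 to 12 h (1), AD replicate 2 or OS replicate 3 for OS against AD at 3 h (2), AD replicate 1 or CH replicate 2 (1) or AD replicate 3 (2) for CH against AD at 3 h, AD replicate 1 or OS replicate 1 or 3 for OS against AD (1), OS replicate 2 for OS against CH (1) and CH replicate 3 for CH against AD (1) at 12 h, and AD replicate 1 or OS replicate 3 (3), AD replicate 2 (4) or AD replicate 3 (0) for OS against AD and CH replicate 1 for OS against CH (2) at 72 h. Of the small counts passing the test without the fold limit, the 3 lower in OS at 3 h against 0 h were 0 without 0 h replicate 2 or 3, the 2 lower in OS at 72 h were 1 without 0 h replicate 2 and 0 without 0 h replicate 3 or OS replicate 3, the 1 lower in AD at 3 h was lost without 0 h replicate 3 or AD replicate 1, the 3 higher in CH from 12 to 72 h were 1 without replicate 1 at 72 h, the 2 lower in CH than in AD at 3 h were 0 without AD replicate 2 or CH replicate 1 and 1 without CH replicate 2, the 1 higher in CH from 3 to 12 h was lost without replicate 1 or 3 at 3 h or 2 at 12 h, the 1 lower in OS than in AD at 72 h was lost without AD replicate 3 or OS replicate 1, and counts of 0 became 1 without 1 library in 5 comparisons. With 1 sample left out 22 to 28 passed higher in all 6 early comparisons, 21 to 29 fell in all 3 lineages, 14 to 20 did both, 22 to 28 were called and 61 to 68 passed in at least 1 of the 9. Of 366 fits of the 61 single calls with 1 sample left out, 332 kept the call.

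No pairing by replicate number was seen. The deviations of same-numbered samples had a median correlation of -0.00854 over 135 pairs, 3 of them above 0.1, and 6 of 30 samples were most alike to a sample of their own number in another group. This cannot show that same-numbered samples do not share a rat or a batch. With the replicate block the counts of called members were the same, at 10 and 15 called in OS at 3 and 12 h and 3 in AD at 72 h. Depth limits what can be said of the 27 members left untested.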
